A study of Homo sapiens with 8 samples.

Results

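This account covers the branch sites held by complexes that contain the tagged SF3B1 protein itself, K700E against wild type. Nuclear complexes were isolated with an antibody to the Flag tag from K562 cells, a human erythroleukemia line, engineered to express SF3B1-3xFlag with the K700E substitution or SF3B1-3xFlag of wild-type sequence (WT). There was 1 library of each genotype, 2 of the 8 libraries of the series, and each gave 1 deposited table of predicted branch points on hg19. Both tables together held 84584 of the 122826 clusters of the series. They were taken by their names alone, and clusters were matched by identifier and branch points by nucleotide. The other 6 libraries were immunoprecipitated with an antibody to SF3A2, another protein of the U2 snRNP, 3 per genotype, and their 2 tables are used only beside the Flag values. Both cell lines carry the tag and were grown and extracted alike, per the labels. The sources used here do not say how many clones they come from or how much untagged SF3B1 they still hold.

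The branch point is the nucleotide near the 3′ end of an intron that attacks the 5′ splice site in the first step of splicing. The U2 snRNP selects it by base pairing between U2 snRNA and the intron. SF3B1 closes around that helix and holds the branch point nucleotide, and K700E, a recurrent substitution in myelodysplastic syndromes, lies in its HEAT repeats and is known to favour cryptic 3′ splice sites with other branch points.

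A cluster is a short genomic interval with a deposited start and end, and each lists ranked branch points, rank 1 being the top. The Flag K700E table listed 134081 branch points in 73582 clusters, and the Flag WT library had 124989 in 69448 clusters. The tables give no read numbers, so the depth behind a cluster is unknown. With 1 library per genotype no difference has a replicate check and no p-value is given. Ranges in brackets are 95% Wilson intervals, computed over clusters or over branch points. They cover counting error only and treat neighbouring clusters as independent. No sequence and no gene is named, because no hg19 genome or annotation was used here, and for the same reason the markers of K562 cells were not checked.

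Of the 84584 clusters, 58446 were listed for both genotypes (69.1%). The K700E table alone listed 15136 (17.9%), called gained here, and the WT table alone 11002 (13.0%), called lost. Gained clusters made up 20.6% of the K700E table (20.3 to 20.9%), and lost clusters 15.8% of the WT table (15.6 to 16.1%). Both shares were higher for clusters without the authors' 3′ splice site mark. Among marked clusters, 8520 were gained and 6481 lost, which was 17.4% of K700E (17.03 to 17.7%) and 13.8% of WT (13.5 to 14.1%). Among unmarked clusters, 6616 were gained and 4521 lost, or 27.0% of K700E (26.4 to 27.5%) and 20.2% of WT (19.6 to 20.7%). Thus 73.0% of the marked and 61.6% of the unmarked clusters were in both tables.

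Clusters of a single genotype were mostly simple. Only 1 branch point was listed in 80.3% of gained clusters (79.7 to 80.9%) and in 83.8% of lost clusters (83.1 to 84.5%). In clusters of both genotypes the same share was 38.2% in the K700E table and 41.3% in the WT table. Gained clusters averaged 1.24 branch points and lost clusters 1.19, against 1.97 in K700E and 1.91 in WT for shared clusters.

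Lost clusters were wider than gained ones. The span, taken as the deposited end minus the deposited start, had a median of 34 nt in gained clusters and 35 nt in lost clusters, and of 34 nt in shared clusters. Spans over 38 nt made up 19.3% of gained (18.7 to 19.97%), 26.3% of lost (25.5 to 27.1%) and 12.5% of shared clusters (12.3 to 12.8%). At the short end, spans under 25 nt made up 5.25% of gained clusters (4.90 to 5.61%), 2.48% of lost clusters (2.21 to 2.79%) and 3.51% of shared clusters (3.36 to 3.66%). Nearly all of these short clusters had no 3′ splice site mark: they were 11.8% of the unmarked gained clusters and 0.176% of the marked gained clusters. Among unmarked clusters the gained share (11.0 to 12.6%) was near that of shared clusters, 11.3% (10.8 to 11.8%), and the lost share was lower, 5.91% (5.26 to 6.63%). A cluster had the same coordinates in each table that listed it. For gained and lost clusters this allows no comparison of spans between the Flag tables, and how the cluster ends were set is not given.

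The balance between gained and lost clusters shifted with span. Of the clusters of a single genotype that spanned 15 to 24 nt, 794 were gained and 273 lost, a gained share of 74.4% (71.7 to 76.9%). At 32 nt there were 1449 gained and 815 lost (64.0%), at 35 nt 1518 and 1131 (57.3%), and at 38 nt 706 and 684 (50.8%, 48.2 to 53.4%). From 39 to 40 nt the numbers were 968 and 995, or 49.3% (47.1 to 51.5%). At 46 nt or more gained clusters were again the more numerous, with 748 against 655 (53.3%, 50.7 to 55.9%). In the SF3A2 tables the corresponding share was 86.7% over all spans, 94.2% at 32 nt and 78.5% from 39 to 40 nt, with a lower value of 33.3% from 15 to 24 nt (30.7 to 36.1%).

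**Figure D1:**
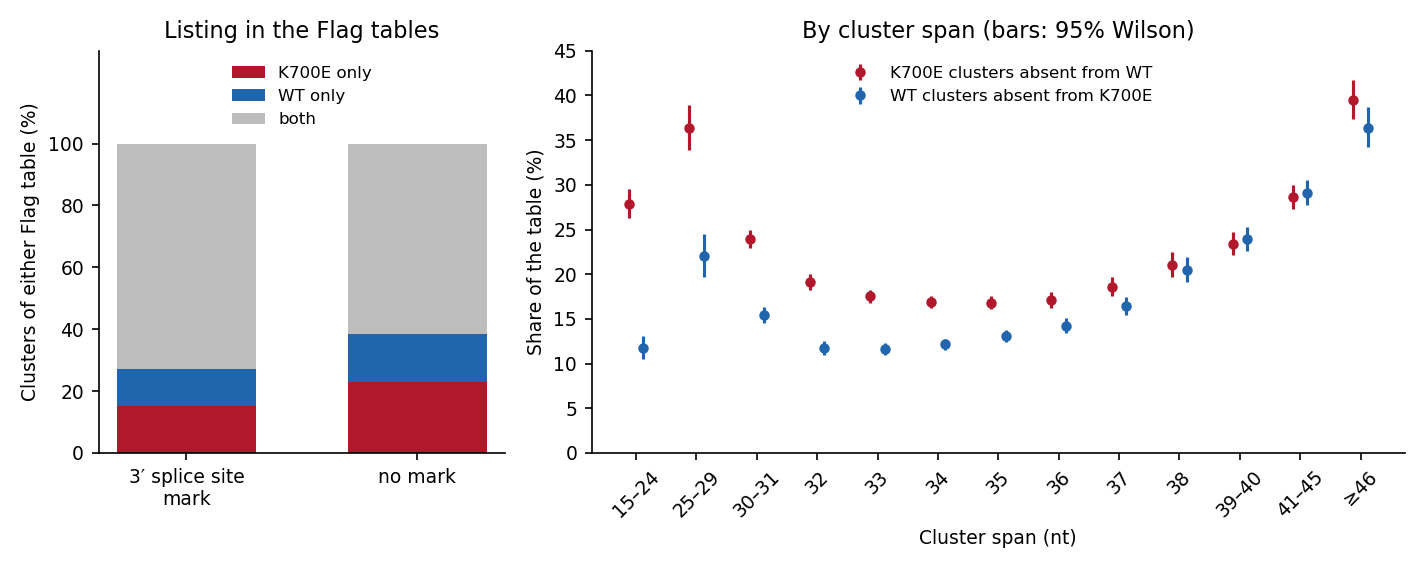
Left, percent of marked and unmarked clusters of either Flag table that were listed for K700E only, for WT only or for both. Right, percent of each table's clusters absent from the other table, by cluster span in nt. Points are shares and bars 95% Wilson intervals: K700E lies above WT up to 37 nt, and the points come together from 38 to 45 nt.

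Gained and lost clusters lay next to clusters of their own kind more often than the table-wide shares. In order along the chromosomes, the next listed cluster was also gained after 24.8% of gained clusters (24.1 to 25.5%), against 15.3% after lost clusters (14.7 to 16.04%) and 17.9% after any cluster. A lost cluster came next after 1869 of 10997 lost clusters (16.3 to 17.7%), against 10.9% after gained clusters (10.4 to 11.4%) and 13.0% after any. Most stood alone: 8978 of the 11380 unbroken runs of gained clusters and 7680 of the 9133 runs of lost clusters held 1 cluster. Runs of 5 or more numbered 124 for gained and 31 for lost clusters. Without chromosomes 17 and X, the like-next shares were 24.2% for gained and 16.6% for lost clusters.

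The longest runs were picked by their length and are given as positions. On chromosome 12, 40 gained clusters followed each other from 40699536 to 42491884, and all 40 were also listed by the SF3A2 K700E table and not by the SF3A2 WT table. The next run, of 34 clusters on chromosome 13 from 19525986 to 19706129, was in the SF3A2 K700E table alone as well, for all 34. Another, of 21 clusters on chromosome 12 from 70903937 to 71504505, was in that table for 20. Among lost clusters the longest run had 13, on chromosome 5 from 90098987 to 90159561. Of these, 5 were in the SF3A2 WT table alone, 7 in both SF3A2 tables and 1 in neither. A run of 9 lost clusters on chromosome 1, from 15578215 to 15650940, had 4 in the SF3A2 WT table alone and 5 in both SF3A2 tables. On chromosome X, all 9 lost clusters from 153173438 to 153186655 were in the SF3A2 WT table alone. The tables hold no measure of transcript amount, so a change in listing and a change in transcript amount cannot be told apart.

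Few gained or lost clusters lay close to a shared one. The spacing of shared clusters among themselves was not measured, so these values have no background to be set against. Within 100 nt of the middle of a shared cluster were 209 gained clusters (1.38%) and 204 lost clusters (1.85%). The median distance was 2438 nt for gained and 2194 nt for lost clusters. Marked clusters gave similar shares, 1.14% of gained and 0.988% of lost (0.934 to 1.39% and 0.774 to 1.26%). Unmarked lost clusters were nearer, with 3.10% within 100 nt (2.63 to 3.64%), against 1.69% of unmarked gained clusters (1.41 to 2.03%).

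The SF3A2 tables, which were not used to class clusters as gained, lost or shared, listed most of them for at least 1 genotype. Identifiers and coordinates were common to the Flag and SF3A2 tables. Whether SF3A2 reads helped to define the clusters is not known, so this listing may not be independent. Of the gained clusters, 95.3% were in the SF3A2 K700E table and 48.9% in the SF3A2 WT table (48.1 to 49.7%). For lost clusters these values were 91.3% and 69.5% (68.6 to 70.3%), and for shared clusters 99.8% and 95.4%. A gained cluster was therefore less often in the SF3A2 WT table than a lost cluster, and a lost cluster less often in the SF3A2 K700E table than a gained one. Yet 10041 of the 11002 lost clusters were listed for K700E with the other antibody. Of the lost clusters, 460 (4.18%) were absent from both K700E tables and present in both WT tables. In turn, 7217 gained clusters (47.7%) were in both K700E tables and in neither WT table. Beside these counts, the 121756 clusters of the SF3A2 tables included 35653 listed for K700E only and 5483 for WT only. The part of that imbalance in the 2 shares was not tested. Among shared clusters, 4.52% were in the SF3A2 K700E table alone and 0.139% in the SF3A2 WT table alone. The SF3A2 K700E table was also the largest of all, with 116273 clusters against 86103 for SF3A2 WT. Of gained clusters found in exactly 1 SF3A2 table, 97.2% were in the K700E one (96.8 to 97.6%). The same share was 97.0% for shared clusters (96.3 to 97.6%), so on this measure gained and shared clusters did not differ beyond their intervals. It was 86.1% for lost clusters (84.9 to 87.3%).

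Gained clusters with a single top in each K700E table had the same nucleotide on top with both antibodies in 79.4% (10683 of 13461). For lost clusters the WT tables had the same top in 75.4% (5341 of 7088). Shared clusters gave 86.9% between the K700E tables and 83.9% between the WT tables.

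Examples were taken by position, as the first on chromosomes 2, 11 and 19 that the SF3A2 tables listed in the same way. Positions are printed as in the tables, which do not state whether the first base is 0 or 1. A gained cluster with the mark lay on chromosome 2 from 230069 to 230098, with 230078 as its only branch point in both K700E tables. Another, on chromosome 11 from 250749 to 250791, had 250774 in both. The gained cluster on chromosome 19 from 327262 to 327300 had 327289 in the Flag table and 327274 in the SF3A2 table, so the same interval was listed with different branch points. Unmarked gained clusters included chromosome 2 from 271975 to 272007 with 271992 on top, chromosome 11 from 201239 to 201270 with 201250, and chromosome 19 from 799892 to 799926 with 799912. In these 3 the top branch point was the same with both antibodies.

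Lost clusters with the mark were fewer: 179 were lost in both antibodies, against 4157 marked clusters gained in both. In the Flag tables alone 6481 marked clusters were lost and 8520 gained. Over all clusters, the SF3A2 tables listed 35653 for K700E only and 5483 for WT only. The part of that imbalance in the counts for both antibodies was not tested. On chromosome 2 the first marked cluster lost in both antibodies spanned 33585617 to 33585650, with 33585639 in both WT tables. That on chromosome 11, from 821585 to 821653, had 821608 in both. On chromosome 19, from 12345742 to 12345778, the Flag WT table had 12345749 and the SF3A2 WT table had 12345752. Without the mark, the first on chromosome 2 spanned only 15 nt, from 4690718 to 4690733, with 4690723 in both WT tables. That on chromosome 11, from 5289692 to 5289734, had 5289703 in both. On chromosome 19, from 807876 to 807923, the top was 807910 in the Flag WT table and 807890 in the SF3A2 WT table.

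Within the 58446 shared clusters, the higher a branch point ranked, the more often the other genotype listed it. Over all ranks, 25.5% of the K700E branch points were absent from WT and 23.2% of the WT branch points were absent from K700E. For rank 1, 11.7% of K700E branch points were absent from WT (11.5 to 12.0%) and 10.8% of WT branch points absent from K700E (10.6 to 11.1%). Absence was more frequent at rank 2, with 34.97% for K700E and 32.3% for WT, and at rank 3, with 51.0% and 48.0%. At each rank the K700E value was the higher, and the 2 intervals did not overlap. In these clusters K700E listed 115296 branch points and WT 111876, of which 85951 were common to both. The higher share of K700E over all ranks follows from its longer list. The part of list length in the shares by rank was not tested.

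Of the K700E branch points of rank 1, 76.3% also had rank 1 in WT, 10.1% had rank 2 and 1.82% rank 3. Seen from WT, 76.2% kept rank 1 in K700E, 11.0% had rank 2 and 1.92% rank 3. Ranks below the top were less stable. A K700E branch point of rank 2 had rank 2 in WT in 37.7% of cases and stood on top there in 18.3%, while a rank 3 branch point kept its rank in 24.0% and stood on top in 6.16%.

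The mark made a small difference to the top rank. In marked clusters 11.0% of the K700E tops were absent from WT (10.7 to 11.3%), against 13.3% in unmarked clusters (12.8 to 13.8%). From the WT side the shares were 10.4% in marked clusters (10.1 to 10.6%) and 12.0% in unmarked clusters (11.5 to 12.4%).

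**Figure D2:**
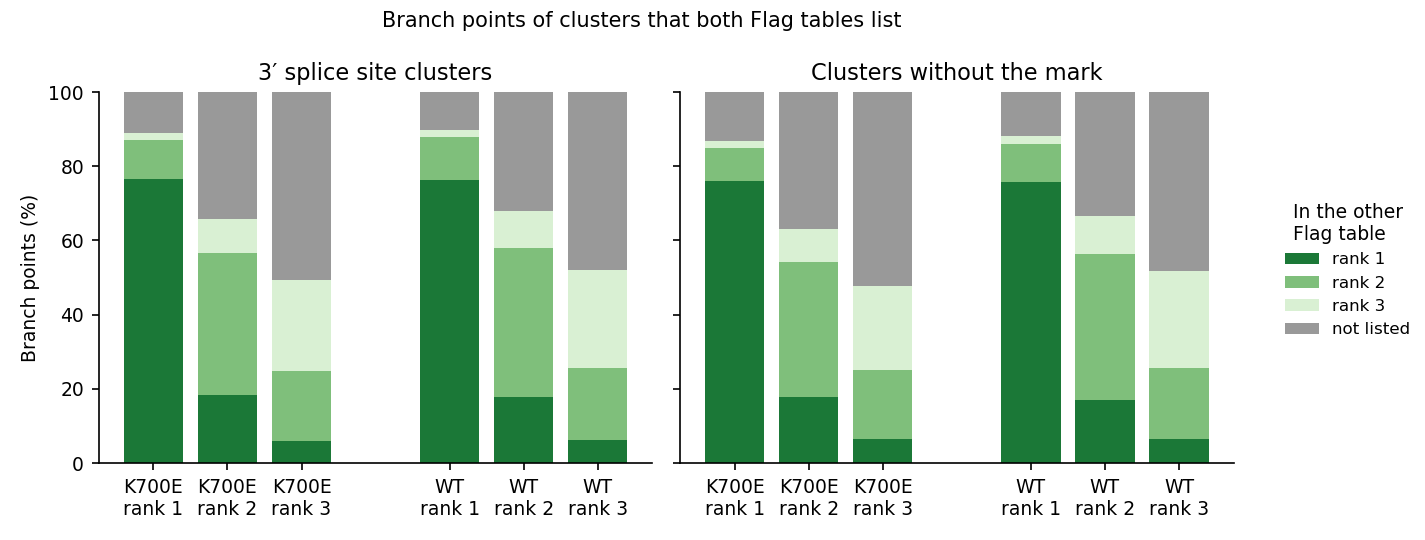
Rank in the other genotype's Flag table of the branch points that each table lists at ranks 1, 2 and 3, in clusters of both tables, as percent of the branch points of that rank (left, marked clusters; right, unmarked clusters). Dark green shares (rank 1 in the other table) are near 76% for rank 1 in all 4 sets, and grey shares (not listed) at rank 3 reach 50.5% for K700E and 47.9% for WT with the mark, and 52.2% and 48.4% without it.

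Taken by cluster, 19758 shared clusters (33.8%, 33.4 to 34.2%) had the same branch points with the same ranks for both genotypes. The same positions, whatever their ranks, were listed in 24476 (41.9%). At the other extreme, 3420 clusters (5.85%) shared no branch point at all. No shared position was found in 6.94% of unmarked and 5.37% of marked clusters. K700E listed more branch points than WT in 13397 clusters and fewer in 10770, with means of 1.97 and 1.91. The surplus was seen with the mark (9279 against 7686) and without it (4118 against 3084).

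Branch points added below an unchanged top lay slightly to 1 side. The strand is not in the tables, so each cluster was oriented by the cluster end nearer to its top branch points in both Flag tables. In 43042 oriented clusters with the same top for both genotypes, 17636 lower-ranked branch points were listed for K700E only, and 51.8% of them lay on the side of the nearer end (51.1 to 52.5%). For the 15298 listed for WT only the share was 49.1% (48.3 to 49.9%), and for the 21885 listed for both 49.5% (48.9 to 50.2%). The most frequent distance from the top was 4 nt in all 3 sets. At 4 nt, K700E-only branch points numbered 2107 on the nearer-end side and 1804 on the other, against 1528 and 1646 for WT-only ones.

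The top branch point itself differed in 12029 of the 55209 shared clusters with a single top in each table (21.8%, 21.4 to 22.1%). With the mark it differed in 21.6% of clusters (21.2 to 22.0%) and without it in 22.3% (21.6 to 22.9%), and these intervals overlapped. The remaining shared clusters had tied tops: 1521 were tied in K700E alone, 1619 in WT alone and 97 in both. Clusters with 1 branch point in each table differed in 2383 of 15887 cases (14.5 to 15.6%), and clusters with 3 or more in each in 24.9% (24.2 to 25.7%).

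The displaced top was often still listed for the other genotype, though both tops were listed in both tables in only 4578 re-ranked clusters (38.1%). The WT top had rank 2 in K700E in 49.1% of them, rank 3 in 7.37% and was not listed in 43.5% (42.6 to 44.4%). The K700E top had rank 2 in WT in 45.4%, rank 3 in 7.22% and was not listed in 47.4% (46.5 to 48.3%). In unmarked clusters the K700E top was absent from WT in 53.3% (51.7 to 54.9%), against 44.7% in marked clusters (43.7 to 45.8%). A plain exchange of ranks 1 and 2 accounted for 3539 clusters (29.4%), and in 3487 (28.99%) each top was absent from the other table. Exchanges were more frequent with the mark, at 31.8% (30.8 to 32.8%), than without it, at 24.3% (22.9 to 25.7%). Outright replacement went the other way, at 26.9% with the mark (25.9 to 27.9%) and 33.6% without it (32.1 to 35.1%).

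Re-ranking had a direction. Among oriented clusters, the K700E top lay closer to the nearer cluster end than the WT top in 7054 (12.8% of the 55209) and farther from it in 4911 (8.90%), or 59.0% closer (58.1 to 59.8%). The share was 59.1% with the mark (58.0 to 60.1%) and 58.7% without it (57.1 to 60.3%). By what became of the tops, it was 59.8% in exchanges of ranks 1 and 2 (58.2 to 61.4%) and 58.1% in replacements (56.4 to 59.7%). It was 60.5% where the WT top had rank 2 in K700E (59.3 to 61.8%) and 53.5% where it had rank 3 (50.2 to 56.8%). With 1 branch point in K700E and 3 or more in WT it was 52.0% (46.8 to 57.2%). The share also differed with the end that was nearer: 60.6% where this was the deposited start (59.4 to 61.8%) and 57.1% where it was the deposited end (55.8 to 58.4%). The direction was the same on all 23 chromosomes tested (Y had too few clusters), with intervals above 50% on 21. Values were lowest on chromosome 19 (54.0%) and chromosome 20 (54.8%) and highest on chromosome 22 (65.5%).

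This direction varied with cluster span. In clusters of 30 to 33 nt the K700E top was closer in 2608 and farther in 687, or 79.2% (77.7 to 80.5%). From 34 to 38 nt there were 2700 and 2421, or 52.7% (51.4 to 54.1%). At 39 nt or more there were 1268 and 1635, or 43.7% (41.9 to 45.5%), so in wide clusters the Flag K700E top was more often the farther one. The change was steep within few nucleotides: 83.1% at 32 nt (80.8 to 85.2%), 79.5% at 33 nt (77.3 to 81.5%), 58.4% at 34 nt (55.7 to 61.02%) and 49.8% at 35 nt (46.9 to 52.7%). From 15 to 24 nt the tops were closer in 363 and farther in 121, or 75% (71.0 to 78.7%). In clusters of 30 to 33 nt it was 79.1% with the mark and 79.3% without, and in wide clusters 43.7% and 43.6%. It was above 50% on all 23 chromosomes in clusters of 30 to 33 nt, with every interval above 50%. At 32 to 33 nt it was 85.1% where the nearer end was the start (83.2 to 86.9%) and 75.8% where it was the end (73.2 to 78.3%), and from 35 to 38 nt 50.7% and 50.9%.

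**Figure D3:**
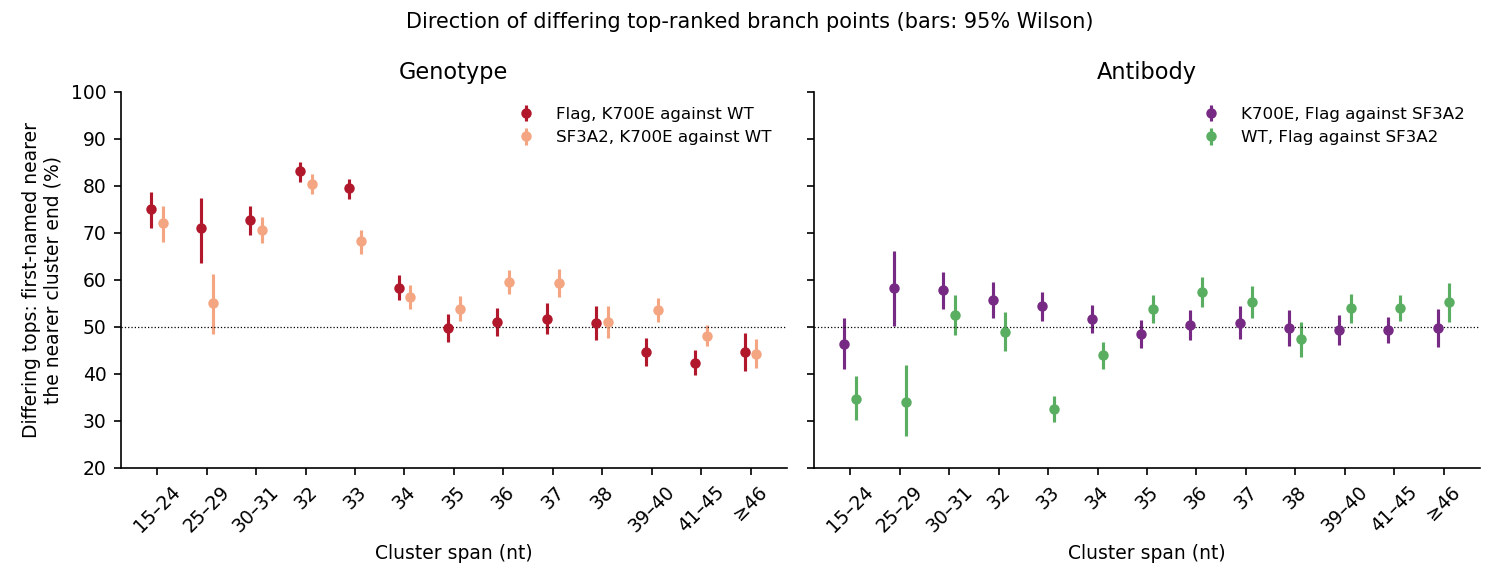
Percent of clusters with differing tops in which the first-named table's top is closer to the nearer cluster end, by cluster span in nt, with 95% Wilson bars and a dotted line at 50%. Left, K700E against WT with each antibody; right, Flag against SF3A2 within each genotype. Flag K700E against WT is near 80% at 32 and 33 nt, near 50% from 35 to 38 nt and below it from 39 nt.

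The frequency of re-ranking moved with span as well. It was 17.6% from 30 to 33 nt (17.05 to 18.1%), 18.97% from 34 to 38 nt (18.5 to 19.4%) and 45.2% at 39 nt or more (43.9 to 46.4%). From 15 to 24 nt it was 24.6% (22.8 to 26.6%). Within a genotype, Flag and SF3A2 tops also differed more often in wide clusters. In WT they differed in 10.9% from 30 to 33 nt, 16.1% from 34 to 38 nt and 37.3% at 39 nt or more. In K700E these shares were 9.56%, 13.8% and 30.96%. Over all spans the shares were 17.1% in WT and 14.6% in K700E, against 21.8% between the Flag tables. The part of such differences in the re-ranking frequency was not tested.

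Between the genotypes the SF3A2 tables also varied with span, and the wild-type tables differed by antibody. For K700E against WT with SF3A2, the closer share was 80.5% at 32 nt (78.3 to 82.5%), 68.2% at 33 nt (65.6 to 70.7%) and 53.9% at 35 nt (51.3 to 56.5%), with a higher value of 59.6% at 36 nt (56.96 to 62.2%). At 33 nt the Flag value was higher than this, without overlap of the intervals. At the same span, Flag WT tops were closer than SF3A2 WT tops in 362 clusters and farther in 750 (32.6% closer, 29.9 to 35.4%), while Flag K700E against SF3A2 K700E gave 54.4% (51.2 to 57.5%). The Flag difference between genotypes at 33 nt thus went together with a difference between antibodies in wild-type cells, whose part in it was not tested. From 15 to 24 nt the wild-type tables differed in the same direction (34.7% closer with Flag, 30.3 to 39.5%). In the few clusters of 25 to 29 nt, K700E against WT gave 71.0% with Flag (63.6 to 77.4%) and 55.0% with SF3A2 (48.5 to 61.3%), and Flag against SF3A2 in WT gave 34.01% (26.8 to 41.99%). At 32 nt the same comparison gave 55.7% for the K700E tables (51.9 to 59.5%) and 49.0% for the WT tables (44.8 to 53.2%), and the genotype shares of the 2 antibodies had overlapping intervals. At 39 nt or more, K700E against WT gave 49.1% with SF3A2 (47.6 to 50.6%), above the 43.7% with Flag. The SF3A2 share there was 46.3% with the mark (44.3 to 48.4%) and 52.5% without it (50.3 to 54.8%). Flag against SF3A2 gave 54.3% in WT (52.4 to 56.1%) and 49.5% in K700E (47.6 to 51.3%) at these spans.

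The shift in average position was a fraction of a nucleotide. In the 5535 clusters of 32 nt with a single top in all 4 tables, the mean distance of the top from the nearer end was 11.1 ± 1.49 nt for Flag K700E and 11.5 ± 1.33 nt for Flag WT (SD over clusters). With SF3A2 these means were 11.1 ± 1.47 nt for K700E and 11.5 ± 1.40 nt for WT. The Flag difference, K700E minus WT, was -0.362 nt at 32 nt, -0.303 nt at 33 nt, 0.0427 nt at 35 nt and 0.725 nt from 41 to 45 nt. With SF3A2 it was -0.363 nt, -0.142 nt, -0.00909 nt and 0.246 nt at these spans.

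The positions behind these shares differed between spans. In clusters of 30 to 33 nt, the top was 10 nt or less from the nearer end in 30.04% of clusters for K700E (29.4 to 30.7%) and in 22.1% for WT (21.5 to 22.7%). It lay at 13 nt or beyond in 14.3% for K700E and 19.4% for WT. From 34 to 38 nt the share within 10 nt was 10.0% for K700E (9.67 to 10.4%) and 8.90% for WT (8.57 to 9.25%). Of 364 clusters of 30 to 33 nt whose tops lay at 9 and 13 nt, K700E had the nearer position in 320 (87.9%, 84.2 to 90.9%). Of 333 with tops at 8 and 12 nt it had the nearer one in 299 (89.8%, 86.1 to 92.6%), the highest of the 10 most frequent pairs. The lowest, 11 and 15 nt, gave 61 of 103 (59.2%, 49.6 to 68.2%). In clusters of 34 to 38 nt the pair of 9 and 13 nt was split 177 of 311 (56.9%, 51.4 to 62.3%). The 10 most frequent pairs there ranged from 35.5% for 13 and 17 nt (28.4 to 43.4%) to 64.6% for 11 and 13 nt (58.1 to 70.6%). From 39 to 45 nt most of the 10 most frequent pairs had K700E more often at the farther position. Among these, the pairs of 13 and 17, 12 and 17, 12 and 18, and 11 and 18 nt had intervals that included 50%. There were also exceptions to this direction, whose intervals included 50% as well. The most frequent pair, 12 and 16 nt, had K700E at the nearer position in 44 of 72 clusters (61.1%, 49.6 to 71.5%), and the pair of 11 and 17 nt in 23 of 43 (53.5%, 38.9 to 67.5%). The lowest of the 10 most frequent pairs, 14 and 18 nt, placed K700E there in 11 of 49 clusters (22.4%, 13.0 to 35.9%).

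**Figure D4:**
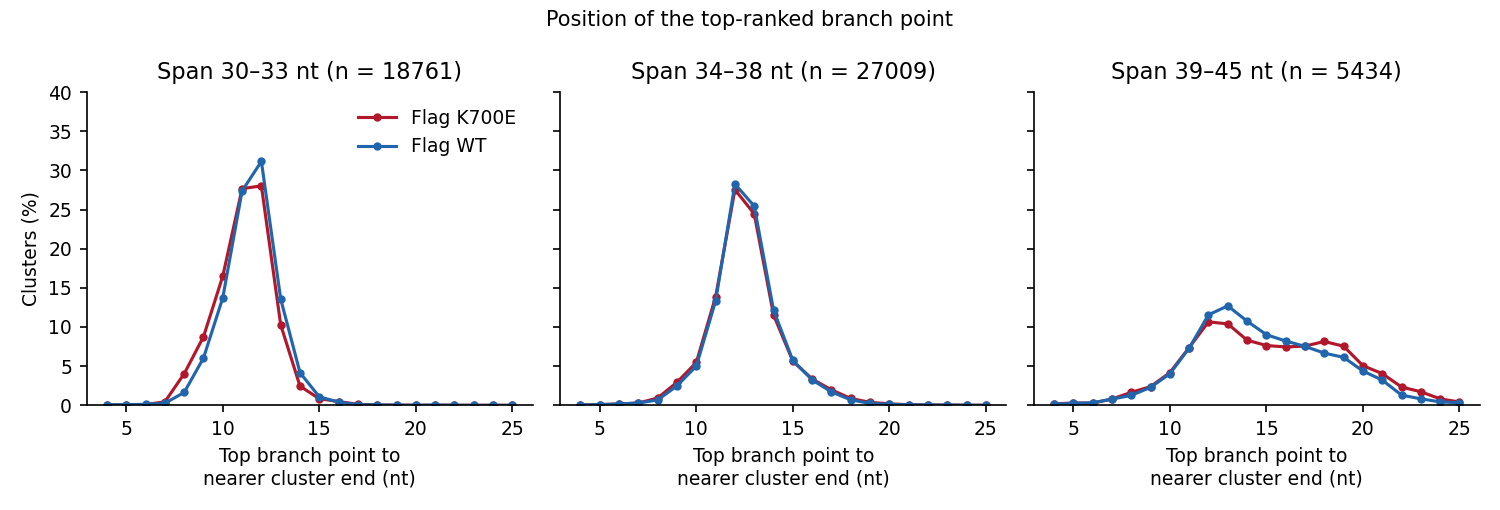
Distance in nt of the top-ranked branch point from the nearer cluster end, as percent of clusters with a single top in each Flag table, for 3 ranges of span. From 30 to 33 nt the K700E curve lies left of the WT curve, from 34 to 38 nt they nearly coincide, and from 39 to 45 nt K700E has fewer clusters near 13 nt and more at 18 nt and beyond.

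Most shifts were short. A shift of 4 nt was the most frequent, with 26.3% of re-ranked clusters, and 65.0% shifted by 1 to 4 nt. The closer share fell with the size of the shift, being 73.4% at 1 nt (70.6 to 76.1%), 68.3% at 2 nt, 66.0% at 3 nt and 62.1% at 4 nt (60.4 to 63.7%). At 5 nt or more it was 45.98% (44.5 to 47.5%), and this held with the mark (46.7%) and without it (44.5%). This order followed the spans in part. In clusters of 30 to 33 nt the share was 82.3% at 1 nt, 80.9% at 4 nt (78.5 to 83.1%) and still 61.9% at 5 nt or more (57.3 to 66.3%). In clusters of 39 nt or more, 419 shifts of 1 to 4 nt went each way, and 849 of 5 nt or more went toward the nearer end against 1216 away (41.1%, 39.01 to 43.3%). Single-nucleotide shifts made up 11.3% of re-ranked clusters without the mark and 6.93% with it.

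**Figure D5:**
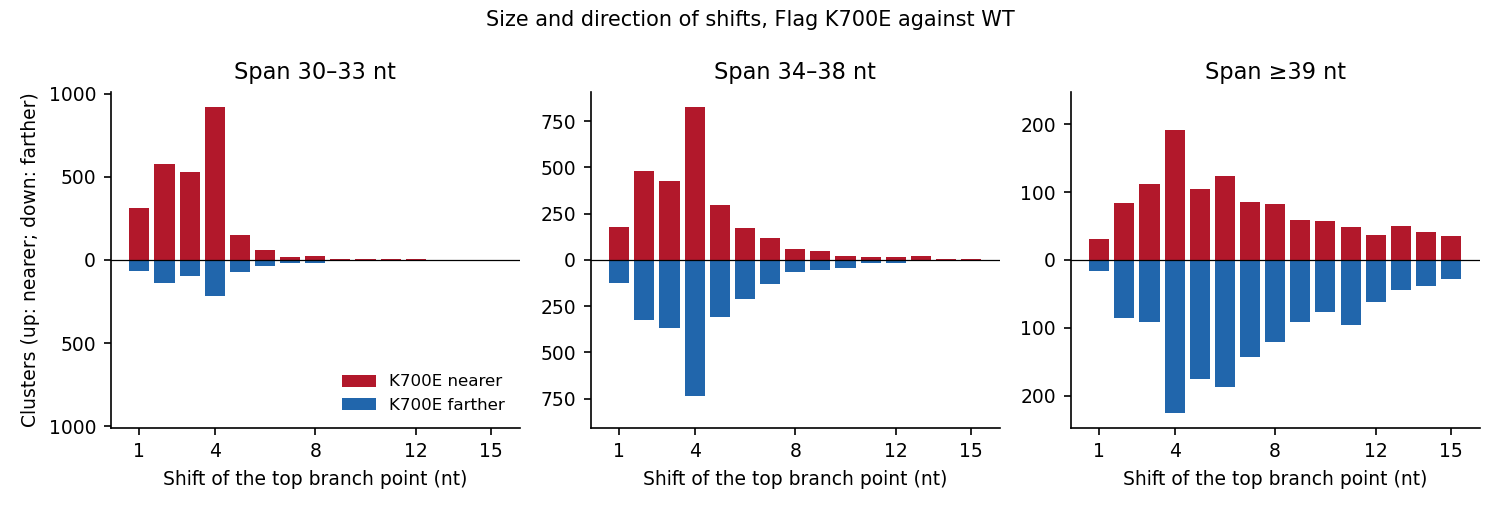
Number of re-ranked clusters by the shift in nt between the K700E and the WT top, in 3 ranges of span, with K700E closer to the nearer end drawn upward and farther drawn downward. The upward bars exceed the downward bars at 1 to 4 nt from 30 to 33 nt (2335 against 519), and at 39 nt or more the downward bars are the longer ones from 4 to 12 nt. Shifts up to 15 nt are drawn, and the vertical scale differs between panels.

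With the SF3A2 antibody, 10336 of the re-ranked clusters had a single top in both tables. In 2615 (25.3%, 24.5 to 26.1%) the SF3A2 tables had the same K700E top and the same WT top as the Flag tables. The reverse arrangement was found in 514 (4.97%). Both SF3A2 tables stood at the Flag K700E top in 3320 clusters (32.1%, 31.2 to 33.03%) and both at the Flag WT top in 2295 (22.2%, 21.4 to 23.0%), so a Flag WT top was more often the position that the other tables did not share. The same-way share was 38.9% in clusters of 30 to 33 nt (37.2 to 40.7%), 20.7% from 34 to 38 nt (19.6 to 21.9%) and 17.3% at 39 nt or more (15.8 to 18.8%). Among the clusters of 30 to 33 nt re-ranked the same way, 1045 were closer in K700E and 112 farther, or 90.3% (88.5 to 91.9%). From 34 to 38 nt these were 542 and 368 (59.6%, 56.3 to 62.7%).

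Examples of re-ranking were again the first by position on chromosomes 2, 11 and 19, among clusters re-ranked the same way with both antibodies. On chromosome 2, the unmarked cluster from 3437622 to 3437654 had 3437644 on top in K700E and 3437642 on top in WT, 2 nt closer to the nearer end in K700E, and Flag K700E kept 3437642 at rank 2. A 2 nt shift of the same kind was seen on chromosome 11 from 1968627 to 1968644, with 1968639 in K700E and 1968637 in WT, each the only branch point listed by its Flag table. On chromosome 19 from 799430 to 799469, the tops were 799457 in K700E and 799454 in WT.

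Shifts away from the nearer end were found at marked clusters in the first 3 examples. On chromosome 2 from 10263467 to 10263501, the top was 10263484 in K700E and 10263488 in WT, and each had rank 2 in the other genotype's Flag table. On chromosome 11 from 293116 to 293152, it was 293136 in K700E and 293139 in WT. There, Flag K700E did not list 293139 at all, while Flag WT kept 293136 at rank 2. On chromosome 19 from 1366248 to 1366287, the tops were 1366270 in K700E and 1366275 in WT, 5 nt apart, with 1366270 at rank 3 in Flag WT.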

How the data were processed

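Libraries had 11 to 14 PCR cycles and inserts between 24 and 55 nt, per the labels, though their passage on read layout names HEK293 RNA and inserts of 28 to 70 nt. The submitters' processing notes name STAR 2.7.6a, cutadapt and the hg19 build, and the series design text says that PCR duplicates were removed. The sources used here do not say by which rules clusters and branch points were called. Per the file headers, each deposited table gives cluster identifier, chromosome, start, end, branch point position and its rank. The rank is a score of 1 to 3 deposited by the authors, with ties, whose basis is not given. In the SF3A2 K700E table, 1 row without an identifier was left out.

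Listing, ranks and tops were compared with Python 3.11.15, pandas 2.3.3 and numpy 2.4.6, and the counting was tested on simulated data. The planned sequence comparison and the gene lists gave no result, because no hg19 genome or annotation was used. Named sites are the first by position on chromosomes 2, 11 and 19 in each class that the SF3A2 tables list in the same way, and runs were picked by length. Members, lists and spans were chosen with earlier results of these data known. Alternatives covered matching, ranks, ties, spans, orientation and chromosomes.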

Additional observations from a re-analysis of the deposited data

Results flagged for a closer look

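The antibodies went opposite ways between the genotypes in 2 places, and neither difference between them was tested. In clusters of 39 to 40 nt, the K700E top was closer to the nearer end in 44.6% of differing clusters with Flag (41.7 to 47.6%, 484 against 600) and in 53.6% with SF3A2 (51.0 to 56.2%, 753 against 651). Among clusters of 15 to 24 nt listed for a single genotype, 74.4% were listed for K700E with Flag (794 against 273) and 33.3% with SF3A2 (396 against 792). Taken alone, unmarked clusters of 39 nt or more also went opposite ways. There the K700E top was closer in 43.6% with Flag (40.5 to 46.7%) and 52.5% with SF3A2 (50.3 to 54.8%).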

How the results depend on the processing

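Of 32 alternatives, 7 stayed within the interval of the reported share, 23 moved beyond it and 2 reversed a direction. In clusters of 30 to 38 nt, gained clusters were 18.5% and lost clusters 13.6%. Branch points absent from the other genotype were 23.6% for K700E and 21.5% for WT, tops differed in 18.4%, the K700E top was closer in 63.1%, and the WT top was not listed in K700E in 38.4%, the last chosen after seeing the data. With matching within 1 nt, absent branch points were 22.3% for K700E and 19.8% for WT. Tops of rank 1 that were not also at rank 1 in the other table were 23.7% for K700E and 23.8% for WT, a measure that counts rank 2 or 3 there as absent and in which K700E was not the higher. Tops differed by 2 nt or more in 19.98%, and in 21.3% of clusters of all 4 tables. All narrower and wider spans were also chosen after seeing the data. Tops differed in 17.6% from 30 to 33 nt, 18.97% from 34 to 38 nt and 45.2% from 39 nt, and the closer shares were 79.2%, 52.7% and 43.7%, the last reversed. Oriented by the SF3A2 tables, the closer share was 60.1% in all, and 79.2%, 53.1% and 47.0% in these spans, again with a reversal in the widest. With a limit of 200 nt, 4.996% of gained and 6.50% of lost clusters lay near a shared one. Matching by overlap, leaving out chromosomes 17 and X, keeping ties and, for the SF3A2 listing of re-ranked clusters, allowing 1 nt did not move the shares beyond their intervals. No paired analysis was possible because each table is 1 library or 1 pooled group without replicate values, so no replicate could be left out either. Depth is unknown, and the larger table of each pair was that of K700E.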
